A study of Mus musculus with 4 samples.

Results

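The genes described here are 10 markers of trophectoderm, the outer epithelium of the blastocyst: the transcription factors Eomes, Elf5, Gata2, Gata3, Hand1 and Ascl2 and the simple-epithelium keratins Krt7, Krt8, Krt18 and Krt19. They were chosen by name, as the genes whose Ensembl identifiers carry these symbols in the GENCODE M21 annotation of GRCm38, and are 10 of the 55401 genes in the deposited tables. RNA came from 2 libraries of EB3-derived mouse embryonic stem cells with the genotype NUP98-HOXA9 (replicates 1 and 2), 1 library of EB3-derived cells with an empty vector and 1 library of the parental EB3 line. NUP98-HOXA9 is a leukaemia fusion of a nucleoporin with a homeodomain factor. All 4 cultures were kept on gelatin with LIF, a cytokine that keeps embryonic stem cells undifferentiated, and no age or treatment time is given in the labels. The labels do not name the promoter that drives the fusion, nor state that the fusion libraries come from different clones or cultures; p-values therefore reflect only how far these samples spread, which may be technical. The empty vector and the parental line form the wild-type group, and only the first of them carries a vector.

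Trophectoderm is the first epithelium of the mouse embryo and forms the fetal part of the placenta. Eomes and Elf5 keep trophoblast stem cells in their state, Gata2 and Gata3 drive trophoblast differentiation, Hand1 directs trophoblast giant cells, and Ascl2 maintains the precursors of the spongiotrophoblast. Keratins form filaments from pairs of a type II protein (Krt7, Krt8) and a type I protein (Krt18, Krt19), and Krt8 with Krt18 is the first pair to appear in the embryo. None of these genes belongs to trophectoderm alone: Gata2 acts in blood, Eomes in primitive streak, Hand1 in heart and extraembryonic mesoderm, and the keratins in most simple epithelia, visceral endoderm included.

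The libraries held 19021386 to 21151729 expected counts, the read counts that RSEM estimates per gene. Levels below are CPM (counts scaled to library size with TMM factors) unless TPM (scaled by transcript length too) is named. Genes called the most abundant of a list are those with the highest mean CPM. Apart from that choice, only TPM is used to compare genes with each other. The embryonic stem cell marker Pou5f1 stood between 940 and 1118 CPM in the 4 libraries. In edgeR's quasi-likelihood test of 16511 genes, 468 were higher in the fusion cells (2.83%) and 96 lower (0.581%) at a Benjamini-Hochberg adjusted p of 0.05.

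Of the 10 genes, 9 had enough counts to be tested, and 0 of these passed in either direction, beside 3.42% of all genes tested, with adjusted p between 0.0512 and 0.91 (edgeR). At an unadjusted p of 0.05, 4 of the 9 passed (Eomes, Gata2, Gata3 and Krt7, with the fusion cells higher in each), beside 20.1% of all genes tested. Both fusion libraries stood above both wild-type libraries for 3 of the 9, beside 27.1% of all genes tested, and below both for 0 of the 9, beside 24.2%. The 3 were Gata2, Gata3 and Krt7. DESeq2's Wald test called 1 of the 10, Gata2, beside 7.72% of the genes it gave an adjusted p. The median log2 fold change of the 9, of which 7 averaged 1 CPM or more in the wild-type libraries, was 0.92, against -0.0034 for all genes tested. That median rested on single libraries: it was 0.17 without fusion replicate 1, 1.45 without replicate 2, 0.21 without the empty-vector library and 1.99 without the parental library. In a bulk sample, fewer cells that carry a transcript and less of it in each cell cannot be told apart.

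**Figure D1:**
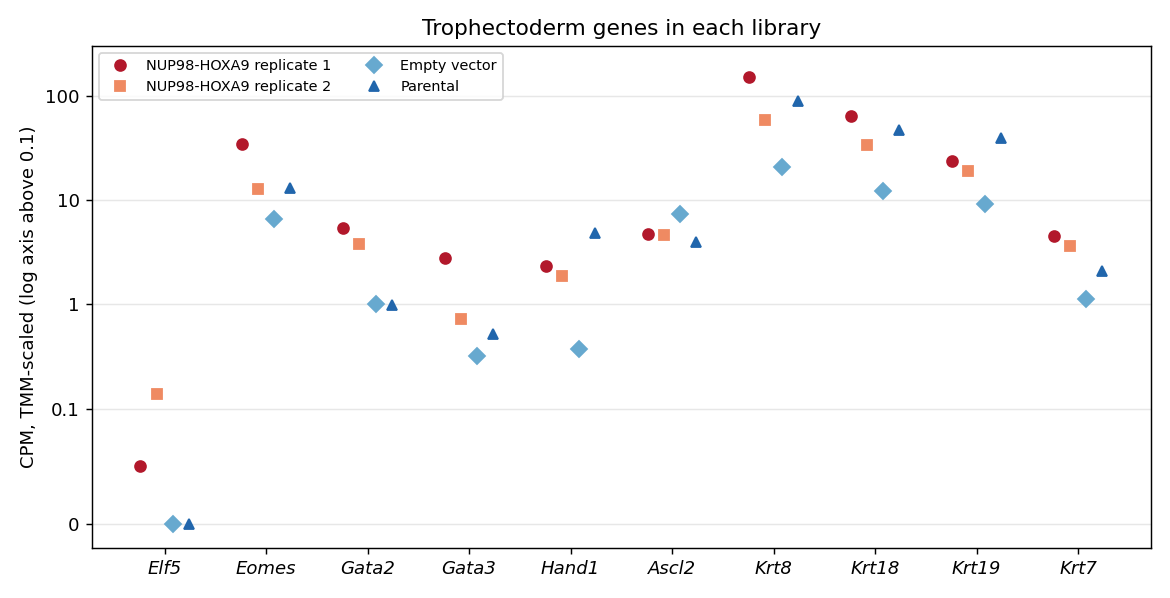
TMM-scaled CPM (log axis above 0.1) of the 10 trophectoderm genes, with 1 point for each of the 4 libraries. Among the 9 genes tested, both fusion points lie above both control points for Gata2, Gata3 and Krt7, while Krt8 spans 20.6 to 150.8 CPM with the parental point between the fusion points.

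Gata2 (chromosome 6, 88193891 to 88207032, plus strand), a zinc-finger factor of trophoblast and of blood stem cells, came nearest to the threshold. It stood at 5.41 and 3.78 CPM in fusion replicates 1 and 2, against 1.01 CPM with the empty vector and 0.99 CPM in the parental line. The groups did not overlap, and the controls lay closer to each other than the fusion libraries did. The group means were 4.599 ± 1.15 CPM in fusion cells and 0.999 ± 0.013 CPM in wild-type cells (SD, n = 2 each). The log2 fold change was 2.20 (SE 0.46), a 4.58-fold difference that did not pass (adjusted p = 0.0512, edgeR). It did pass with DESeq2's size factors (adjusted p = 0.0498), with a filter of 1 CPM in 2 libraries (0.047), with no count filter (0.00268) and by DESeq2's Wald test (0.00613). It did not pass with library totals (0.0507), with a fit that was not robust (0.051) or by limma (0.118 to 0.283). With 1 library left out it did not pass in any fit, and its log2 fold change was 1.91 to 2.43. Nor did it pass against either control alone, where its log2 fold change was 2.18 (empty vector) and 2.21 (parental). The abundance-weighted transcript length that the authors' tables list for Gata2 was 1493 and 2507 bases in fusion replicates 1 and 2, 2273 bases with the empty vector and 1527 bases in the parental line. Its TPM therefore had a different spread, with 5.63 and 2.37 TPM in the fusion libraries, 0.66 TPM with the empty vector and 0.91 TPM in the parental line.

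Gata3 (chromosome 2, 9857078 to 9890034, minus strand), the GATA factor that acts beside Cdx2 in trophectoderm, was among the scarcest of the tested genes. Its counts were 55 and 16 in fusion replicates 1 and 2, against 6 with the empty vector and 10 in the parental line. In CPM these are 2.76 and 0.73, against 0.32 and 0.52, so that replicate 2 stood only slightly above the parental line. At a log2 fold change of 2.03 (SE 0.76), Gata3 missed the threshold (adjusted p = 0.2, edgeR), and the value was 0.78 without fusion replicate 1. With no count filter Gata3 passed (adjusted p = 0.0482).

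Eomes (chromosome 9, 118478212 to 118486132, plus strand), the T-box factor of trophoblast stem cells and primitive streak, stood at 34.1 and 12.7 CPM in fusion replicates 1 and 2. The empty-vector library had 6.63 CPM and the parental library 13.0 CPM. Fusion replicate 1 was the highest of the 4, and replicate 2 lay just under the parental line, so the groups overlapped. The log2 fold change was 1.26 (SE 0.52, adjusted p = 0.24, edgeR), with 0.37 without fusion replicate 1 and 1.80 without replicate 2. An antisense gene, Gm33460, overlaps Eomes with at most 10 counts in a library; the sources used here do not state whether counting used strand.

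Elf5 (chromosome 2, 103411688 to 103450989, plus strand), the ETS factor whose promoter is methylated and silent in embryonic stem cells, had 1 and 3 counts in fusion replicates 1 and 2 and 0 counts in both wild-type libraries. A count of 0 allows up to 3 counts, which is 0.159 CPM with the empty vector and 0.156 CPM in the parental line. Both fusion values, 0.0501 and 0.137 CPM, lie under these limits, so a difference was not detectable at this depth, and Elf5 was not tested. Such limits, and the intervals below, cover counting error only.

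Hand1 (chromosome 11, 57828705 to 57832818, minus strand), the bHLH factor of trophoblast giant cells, was set apart by its controls. It stood at 2.31 and 1.87 CPM in fusion replicates 1 and 2, against 0.371 CPM with the empty vector and 4.84 CPM in the parental line. The fusion libraries lay close together and between the controls, which hold 7 counts (empty vector) and 93 counts (parental). The log2 fold change was -0.32 (SE 0.94, adjusted p = 0.9, edgeR). It was 2.47 against the empty vector alone (adjusted p = 0.179) and -1.21 against the parental line alone (adjusted p = 0.359), so its direction depends on the control.

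Ascl2 (chromosome 7, 142966829 to 142969264, minus strand), an imprinted bHLH factor, stood at 4.71 and 4.61 CPM in the fusion libraries, against 7.27 CPM with the empty vector and 3.96 CPM in the parental line. The fusion libraries again lay between the controls, though here the empty vector was the higher one. Its log2 fold change was -0.27 (SE 0.42, adjusted p = 0.788, edgeR), with -0.64 against the empty vector and 0.23 against the parental line.

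Krt8, Krt18 and Krt19 were the most abundant of the 10 genes by TPM in every library, in that order, and the 4 keratins made up 88.4% and 87.5% of the summed TPM of the 10 genes in fusion replicates 1 and 2. With the empty vector they made up 78.6%, and in the parental line 91.8%. Krt8 (chromosome 15, 101996698 to 102004482, minus strand) stood at 150.8 and 58.1 CPM in fusion replicates 1 and 2, against 20.6 CPM with the empty vector and 89.9 CPM in the parental line. The parental line lay between the fusion replicates, so the groups overlapped. The log2 fold change was 0.92 (SE 0.68, adjusted p = 0.524, edgeR). It was 0.067 without fusion replicate 1, 2.33 without the parental library and 0.20 without the empty-vector library. The counts of Krt8 are not whole because RSEM shares reads with other genes, among which the processed pseudogene Krt8-ps received 2.95 to 14.17 counts.

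Krt18 (chromosome 15, 102028180 to 102032027, plus strand), the type I partner of Krt8, kept the same order of libraries. It stood at 64.6 and 33.7 CPM in fusion replicates 1 and 2, against 12.3 CPM with the empty vector and 47.2 CPM in the parental line. Its log2 fold change was 0.72 (SE 0.59, adjusted p = 0.57, edgeR), and it was 0.17 without fusion replicate 1, 1.99 without the parental library and 0.035 without the empty-vector library. Krt18 had the profile nearest to that of Krt8 among 9733 genes averaging 10 CPM or more, by the root mean square difference of log2 CPM centred on each gene's mean over the 4 libraries (0.189). The next nearest were Hmga2 (0.19) and Igfbp4 (0.213), while Eomes came 8th and Krt19 42nd. Seen from Krt18, Hmga2 came first (0.169), Krt8 came next and then Nab2 (0.201). These ranks rest on 4 libraries and describe likeness only.

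Krt19 (chromosome 11, 100140810 to 100148665, minus strand), the smallest keratin, stood at 23.7 and 19.1 CPM in the fusion libraries, against 9.12 CPM with the empty vector and 39.2 CPM in the parental line. Unlike Krt8, it was highest in the parental line. Its log2 fold change was -0.18 (SE 0.59, adjusted p = 0.91, edgeR), with 1.23 against the empty vector alone and -0.88 against the parental line alone. Krt7 (chromosome 15, 101411043 to 101430313, plus strand), a second type II keratin, was far scarcer and did separate the groups. It stood at 4.56 and 3.60 CPM in the fusion libraries, against 1.11 CPM with the empty vector and 2.08 CPM in the parental line. At a log2 fold change of 1.35 (SE 0.48), Krt7 missed the threshold (adjusted p = 0.184, edgeR).

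In TPM, Krt8 supplied 95.4% to 98.1% of the type II total (Krt7 and Krt8) in the 4 libraries. The type II total was 1.26 and 0.826 times the type I total (Krt18 and Krt19) in fusion replicates 1 and 2, 0.692 times with the empty vector and 0.749 times in the parental line. Krt19 stood at 0.387 and 0.582 times Krt18 in the fusion libraries, against 0.828 with the empty vector and 0.873 in the parental line. Both of these ratios separated the groups without overlap. They were computed after the levels had been seen and were not tested.

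**Figure D2:**
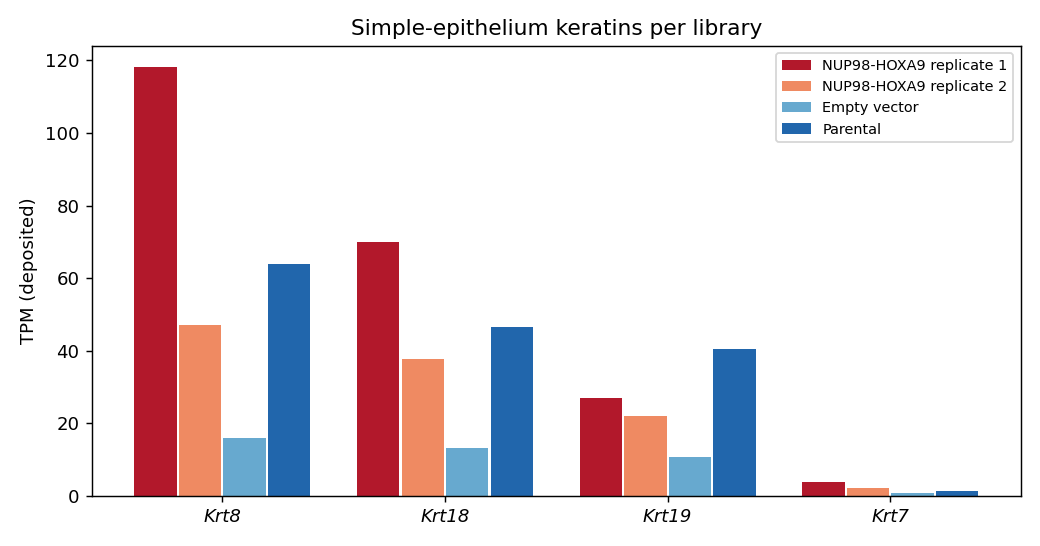
Deposited TPM of the 4 keratins, with 1 bar for each library and no error bar, since each bar is 1 library. Krt8 reaches 118 TPM in fusion replicate 1 and 15.8 TPM with the empty vector, and Krt19 is highest in the parental line at 40.6 TPM.

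Krt8 and Krt18 are transcribed away from each other, with 23.7 kb between their annotated starts. Because they had nearly the same profile, their promoters are given as RefSeq lists them on GRCm38.p6, from 250 bases before to 50 bases after the start. The Krt8 window is chr15:102004293-102004592 on the minus strand (58.0% G and C) and the Krt18 window is chr15:102027966-102028265 on the plus strand (61.3% G and C). Capitals mark matches to any of 4 motifs searched on both strands: TGATTTAT for HOX with PBX, AGATAA for GATA factors, CATTCC for TEAD factors and GCCNNNGGC for AP-2 factors, the last of which reads the same on both strands.
Krt8: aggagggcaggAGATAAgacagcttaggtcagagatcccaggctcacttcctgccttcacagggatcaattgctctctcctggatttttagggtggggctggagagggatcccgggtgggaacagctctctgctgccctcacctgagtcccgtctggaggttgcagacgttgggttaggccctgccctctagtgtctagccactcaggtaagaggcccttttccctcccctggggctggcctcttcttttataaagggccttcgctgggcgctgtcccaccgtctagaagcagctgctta
Krt18: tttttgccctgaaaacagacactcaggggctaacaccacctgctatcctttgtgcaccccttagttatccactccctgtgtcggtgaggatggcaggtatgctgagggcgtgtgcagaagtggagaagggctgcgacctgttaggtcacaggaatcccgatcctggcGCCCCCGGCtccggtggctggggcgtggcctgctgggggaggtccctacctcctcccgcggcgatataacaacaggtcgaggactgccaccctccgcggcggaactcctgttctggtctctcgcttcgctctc
The Krt8 window holds 1 GATA match and the Krt18 window 1 AP-2 match, and the matches do not overlap another motif. RefSeq promoters were matched for 8 of the 10 genes, with 10 windows in all. Of these 10 windows, 0 hold the HOX with PBX letters, 1 the GATA letters, 2 the TEAD letters and 4 the AP-2 letters. Among all 32851 promoters of the same length, 0.977%, 11.2%, 14.7% and 16.6% hold them. A match is a run of letters and no evidence of binding.

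The controls differed from each other in several of these genes. With the empty vector set against the parental line, 4 of the 8 genes that reached 1 CPM in the higher library were at least 2-fold lower, beside 3.75% of all such genes, and 0 were at least 2-fold higher, beside 4.73%. They were Krt8, Krt18, Krt19 and Hand1. Krt8 was 0.229 times the parental level with the empty vector (95% exact binomial interval 0.205 to 0.256), Krt18 was 0.261 times (0.225 to 0.301) and Krt19 was 0.233 times (0.196 to 0.275). Hand1 was 0.0767 times the parental level (0.03 to 0.164). With 1 library on each side these ratios compare libraries and carry no test of the vector. Each of these genes passed in neither direction when the fusion was set against 1 control alone, in a fit with 3 groups (smallest adjusted p = 0.137, for Krt18 against the empty vector; edgeR).

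The fusion libraries differed from each other in a smaller set. Of the 9 genes that reached 1 CPM in the higher of the fusion libraries, 3 were at least 2-fold higher in replicate 1 than in replicate 2, beside 2.73% of all such genes, and 0 were at least 2-fold lower, beside 6.85%. They were Gata3 (3.78-fold, interval 2.13 to 7.07), Eomes (2.68-fold, 2.33 to 3.10) and Krt8 (2.59-fold, 2.43 to 2.77). Krt18 was 1.91-fold higher (1.75 to 2.10). Gata2 was 1.43-fold higher, and Krt19, Hand1, Ascl2 and Krt7 differed by 1.02-fold to 1.27-fold.

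**Figure D3:**
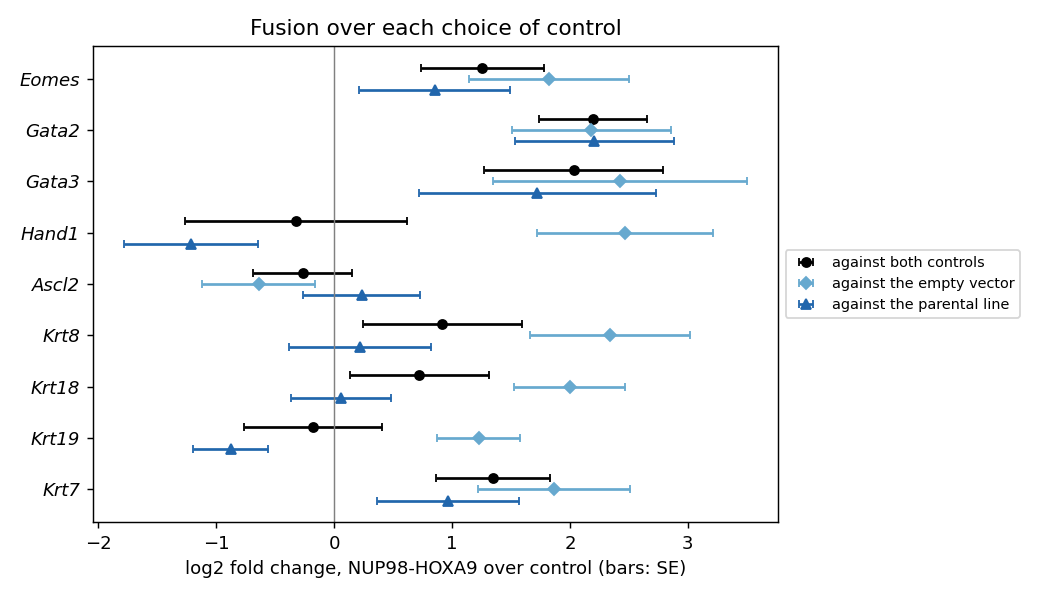
Log2 fold change of the fusion cells over both controls, over the empty vector alone and over the parental line alone, with bars of 1 SE, for the 9 genes tested. Gata2 has nearly the same value under all 3 choices (2.18 to 2.21), while Hand1 and Krt19 lie above 0 against the empty vector and below 0 against the parental line.

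Krt7, Krt8 and Krt18 lie on the same stretch of chromosome 15, where neighbouring genes were shifted too. Among 119 genes within 5 Mb of Krt8 that averaged 1 CPM or more, the median log2 ratio of a library to the mean of the other 3 was 0.53 in fusion replicate 1 and -0.04 in replicate 2. It was -0.18 with the empty vector and -0.29 in the parental line. The median log2 fold change of these neighbours, fusion over wild type, was 0.37, against 0.92 for Krt8, 0.72 for Krt18 and 1.35 for Krt7. The shift was not confined to that window. Over 576 genes of chromosome 15, members left out, the median log2 ratio was 0.34 in fusion replicate 1 and -0.10 in replicate 2. It was -0.11 with the empty vector and -0.06 in the parental line, and the median log2 fold change was 0.16. The part of this shift in the keratin values, or in their ratios to Krt19 of chromosome 11, was not tested.

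**Figure D4:**
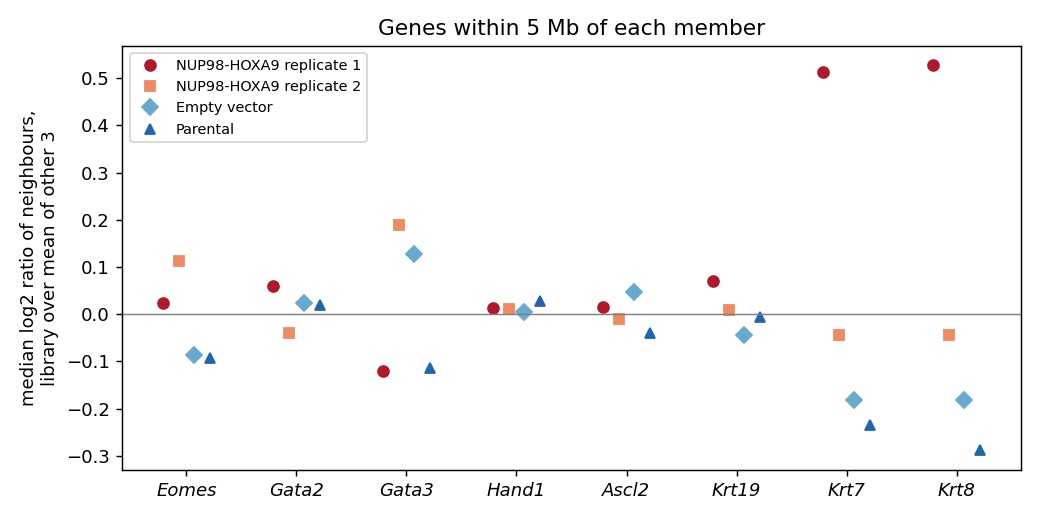
Median log2 ratio of a library over the other 3 averaged, for the genes within 5 Mb of each member (members left out), for Eomes, Gata2, Gata3, Hand1, Ascl2, Krt19, Krt7 and Krt8. Neighbours of Krt7 and Krt8 reach 0.51 and 0.53 in fusion replicate 1, and the largest value elsewhere is 0.19.

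Of 22 other listed regulators of trophoblast 21 were tested, and 1 rose, 1 fell and 19 did not pass, with a median log2 fold change of 0.16. Over all genes tested 2.83% rose and 0.581% fell, the shares to set beside this and each list count below. Klf5, a zinc-finger factor needed for trophectoderm and for embryonic stem cell self-renewal, rose to 568 and 336 CPM in the fusion libraries, against 134 CPM with the empty vector and 157 CPM in the parental line (log2 1.64, SE 0.27, adjusted p = 0.0315, edgeR). Cdh3, which encodes P-cadherin, fell to 23.1 and 40.8 CPM, against 88.4 CPM with the empty vector and 96.7 CPM in the parental line (log2 -1.53, SE 0.29, adjusted p = 0.0397, edgeR). Klf5 lost its call without the parental library (adjusted p = 0.0615), the empty-vector library (0.087) or fusion replicate 1 (0.0809), and Cdh3 without the parental library (0.0638) or fusion replicate 1 (0.102). Cdx2, the factor that specifies trophectoderm, named here after its values were seen, had 8.87 and 2.69 CPM in the fusion libraries, 0.424 CPM with the empty vector and 0.938 CPM in the parental line (log2 3.07, SE 0.73, adjusted p = 0.0709, edgeR). Esrrb and Zfp42, the most abundant of the list and pluripotency factors as well, had log2 fold changes of 0.02 and -0.26.

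Among 20 listed genes of placental cell types, 12 were tested, and 3 rose and 1 fell, with a median log2 fold change of 1.10. Only 7 of the 12 averaged 1 CPM or more in the wild-type libraries, and Slco2a1 and Cyp11a1 were not among them. A gene could enter the test on its fusion counts alone, so the number that rose and the median depend in part on the filter. Slco2a1, a prostaglandin transporter, rose to 15.9 and 10.3 CPM in the fusion libraries, against 0.371 CPM with the empty vector and 0.886 CPM in the parental line (log2 4.36, SE 0.53, adjusted p = 0.0135, edgeR). Cyp11a1, the first enzyme of steroid synthesis, rose to 4.51 and 5.15 CPM, against 0.371 and 0.365 CPM in the controls (log2 3.69, SE 0.49, adjusted p = 0.0168). Mmp9, a matrix protease of giant cells, rose to 13.1 and 10.5 CPM, against 0.902 CPM with the empty vector and 2.45 CPM in the parental line (log2 2.81, SE 0.51, adjusted p = 0.0382). Plac8 fell to 1.96 and 3.37 CPM, against 9.97 and 15.0 CPM in the same controls (log2 -2.22, SE 0.42, adjusted p = 0.0417). All 4 calls were lost without fusion replicate 1 (adjusted p = 0.0543, 0.0531, 0.159 and 0.173 in that order). Without replicate 2, Mmp9 (0.0709) and Plac8 (0.0551) were lost, and without the parental library Plac8 (0.0806).

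Several products of the differentiated placenta were at or near 0, while others were detected at low levels. Tpbpa of the spongiotrophoblast, Prl3d1, Prl3b1 and Prl2c2 of giant cells, and Hsd3b6 had 0 counts in all 4 libraries, which allows up to 0.137 to 0.159 CPM. Synb, Ctsq and Psg17, further genes of placental cells, had 1 count in 1 library each. These are the 8 genes of the list that were not tested. Plac1, a trophoblast surface gene named after its values were seen, had 0.852 and 0.684 CPM in the fusion libraries, against 0 CPM with the empty vector and 0.0521 CPM in the parental line, where 1 count was found (adjusted p = 0.0505, edgeR). Gcm1, the factor of syncytiotrophoblast formation, named likewise, had 1.96 and 1.19 CPM in the fusion libraries, against 0.371 CPM with the empty vector and 0.0521 CPM in the parental line (log2 2.86, SE 0.79, adjusted p = 0.103, edgeR). Syna, a syncytin, lay between 0.501 and 0.938 CPM in the 4 libraries with overlapping groups. Peg10 and Phlda2, imprinted genes and the most abundant of the list, missed the threshold. Peg10 had 2145 and 903 CPM in the fusion libraries, 448 CPM with the empty vector and 590 CPM in the parental line (log2 1.55, SE 0.39, adjusted p = 0.0807, edgeR). DESeq2's Wald test did call Peg10 higher (adjusted p = 0.00135). With 1 library left out, the log2 fold change of Peg10 was 0.79 to 2.05.

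All 27 listed genes of epithelial junctions were tested, and 3 rose and 2 fell, with a median log2 fold change of -0.69. In both fusion libraries, 8 of the 27 lay above both controls, beside 27.1% of all genes tested, and 15 lay below both, beside 24.2%. Aqp3, a water and glycerol channel, rose to 192 and 106 CPM, against 21.6 CPM with the empty vector and 15.1 CPM in the parental line (log2 3.02, SE 0.34, adjusted p = 0.0109, edgeR). The desmosomal cadherin Dsc2 (log2 2.52, adjusted p = 0.0369) and the protease inhibitor Spint1 (log2 1.68, adjusted p = 0.0382) rose too. The tight-junction claudins Cldn4 (log2 -1.49, adjusted p = 0.0418) and Cldn6 (log2 -1.82, adjusted p = 0.0459) fell. Without fusion replicate 1 only Aqp3 of these 5 kept its call. Without the parental library Spint1 (adjusted p = 0.132), Cldn4 (0.0735) and Cldn6 (0.116) lost theirs, and without the empty-vector library Dsc2 (0.0622), Spint1 (0.087) and Cldn6 (0.0542) did. Cdh1, which encodes E-cadherin, had 230 and 318 CPM in the fusion libraries, 496 CPM with the empty vector and 645 CPM in the parental line (log2 -1.06, SE 0.23, adjusted p = 0.0563, edgeR). Cdh1 did pass as lower with no count filter (adjusted p = 6.79e-05, edgeR) and by DESeq2's Wald test (0.00152). DESeq2 called 4 of the 27 higher and 7 lower. Ezr, a linker of membrane to actin, had a log2 fold change of 0.39.

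Among 24 further keratins only 6 were tested and 0 passed (edgeR, with 2 at an unadjusted p under 0.05 and 0 by DESeq2). Their median was 0.57 on the log2 scale, and 3 of the 6 averaged 1 CPM or more in the wild-type libraries. The 2 most abundant, the type I keratins Krt17 and Krt42, stood highest in the parental line, at 20.7 and 21.98 CPM. Krt17 had 8.87 and 3.83 CPM in the fusion libraries, against 7.48 CPM with the empty vector, and Krt42 had 14.7 and 7.34 CPM, against 9.18 CPM. Among relatives of the member factors, 5 of 6 listed GATA factors and cofactors were tested, and 2 rose and 0 fell. Their median log2 fold change was 1.295, and 3 of the 5 averaged 1 CPM or more in the wild-type libraries. Gata6 and Gata4, GATA factors of primitive endoderm, rose by a log2 fold change of 6.07 (SE 0.45, adjusted p = 0.00476) and 3.77 (SE 0.38, adjusted p = 0.00851). Gata6 stood at only 0.212 CPM with the empty vector and 0.469 CPM in the parental line. It could enter the test on its fusion counts alone. Zfpm1, a GATA cofactor, was at 1.295 on the log2 scale (adjusted p = 0.107). Of 19 listed T-box, bHLH and ETS relatives 10 were tested, and 1 rose and 0 fell, with a median log2 fold change of -0.05. In both fusion libraries, 3 of the 10 lay above both controls, beside 27.1% of all genes tested, and 3 below both, beside 24.2%. The T-box factor Tbx3 rose to 524 and 418 CPM in the fusion libraries, against 82.5 CPM with the empty vector and 47.6 CPM in the parental line (log2 2.86, SE 0.30, adjusted p = 0.00863, edgeR). Elf3, an epithelial relative of Elf5, was at 0.995 (adjusted p = 0.0812).

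Markers of other cell types were measured in the same libraries, and their part in the values above was not tested. Of 13 markers of primitive endoderm, which also carries Krt8, Krt18 and Krt19, 11 were tested and 9 rose, with a median log2 fold change of 4.22. Only 5 of the 11 averaged 1 CPM or more in the wild-type libraries. A gene could enter the test on its fusion counts alone, so the count and the median depend in part on the filter. The summed level of the 13 markers was 984 and 934 CPM in fusion replicates 1 and 2, 193 CPM with the empty vector and 214 CPM in the parental line. Pdgfra, a receptor of that lineage, rose to 14.6 and 26.7 CPM, against 1.22 CPM with the empty vector and 0.99 CPM in the parental line (log2 4.22, SE 0.43, adjusted p = 0.00863, edgeR). Col4a1, Col4a2, Sox7, Sox17 and Dab2 rose as well, with Col4a1 at a log2 fold change of 3.996 and Dab2 at 2.77, and Sox17 lost its call without fusion replicate 1 (adjusted p = 0.0537). The basement membrane gene Lamb1, the most abundant of the list, was at 0.61 on the log2 scale (adjusted p = 0.0954). The fetal serum proteins Afp and Ttr of that list were too scarce to test. The number that rose was 6 without the empty-vector library.

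Of 13 mesoderm markers 9 were tested and 3 rose, with a median log2 fold change of 0.36. Pdgfrb, a pericyte and mesenchyme receptor, rose by 2.94 on the log2 scale (adjusted p = 0.00844, edgeR). Bmp7, a secreted BMP ligand, rose by 1.84 (adjusted p = 0.0251), and the homeobox gene Hoxb1 rose too (adjusted p = 0.0151). Hoxb1 had 2.105 and 3.055 CPM in the fusion libraries, and 1 count in each control. Only 7 of the 9 averaged 1 CPM or more in the wild-type libraries, and Hoxb1 was not among them. A gene could enter the test on its fusion counts alone, so the number that rose depends in part on the filter. Both fusion libraries stood above both controls for 4 of the 9, beside 27.1% of all genes tested. They stood below both for 1, Mixl1 (log2 -1.18, adjusted p = 0.344, edgeR), beside 24.2%. Bmp7 lost its call without fusion replicate 1 (adjusted p = 0.114) or replicate 2 (0.0514). The summed level of the 13 mesoderm markers was 94.7 and 75.2 CPM in the fusion libraries. It was 23.8 CPM with the empty vector and 24.3 CPM in the parental line. Most of the fusion sum came from Pdgfrb, Bmp7 and Snai1, the last named after its values were seen. Pdgfrb had 44.61 and 35.52 CPM in the fusion libraries, against 5.198 CPM with the empty vector and 5.261 CPM in the parental line. Bmp7 had 19.6 and 18.01 CPM, against 5.251 and 5.261 CPM in the same controls. Snai1 had 18.1 and 10.72 CPM, against 5.092 and 4.167 CPM, and did not pass. The groups overlapped for Kdr, Lhx1, Twist1 and Myl7. The defining early mesoderm factors Mesp1 and Msgn1 were too scarce to test. Of 8 surface ectoderm markers 3 were tested and Dlx3, a homeobox gene that placenta also uses, rose (log2 3.50, SE 0.46, adjusted p = 0.0158, edgeR; 0.0669 without fusion replicate 1). Trp63, which defines stratified epithelium, had at most 1 count in a library, and the summed level of these markers was 90.0 and 34.8 CPM in the fusion libraries, 45.8 CPM with the empty vector and 22.3 CPM in the parental line. Perp, the most abundant of them, had a log2 fold change of 0.39.

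Of 10 fibroblast markers 8 were tested and 0 passed (edgeR; 4 at an unadjusted p under 0.05 and 1 by DESeq2), with summed levels of 308 and 238 CPM in the fusion libraries, 183 CPM with the empty vector and 149 CPM in the parental line. Vim and Col1a1, the highest of them by mean CPM, had log2 fold changes of 0.71 and 0.90. Thy1, named after its values were seen, lay above Col1a1 by TPM in every library. Its log2 fold change was -0.12 with overlapping groups. Of the 10 pluripotent cell markers 0 passed (edgeR), although 5 had an unadjusted p under 0.05 and DESeq2 called 3 higher and 1 lower. Their median was 0.05 on the log2 scale, with Pou5f1 at -0.08 and Dppa5a at 0.18, the most abundant of the list. Other members lay further from 0 on either side and are named here after their values were seen. The naive-state factors Klf4 (log2 1.40, adjusted p = 0.0651, edgeR), Nanog (log2 1.11, adjusted p = 0.0867) and Tfcp2l1 (log2 0.83, adjusted p = 0.093) stood above both controls in both fusion libraries. Klf2 stood below both (log2 -0.97, adjusted p = 0.0529, edgeR), as did Sox2 (log2 -0.34), Zfp42 (-0.26) and Utf1 (-0.46). So 3 of the 10 lay above both controls, beside 27.1% of all genes tested, and 4 lay below both, beside 24.2%. Without the empty-vector library, 2 of the 10 were called higher, and without fusion replicate 2, 1 was called lower.

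**Figure D5:**
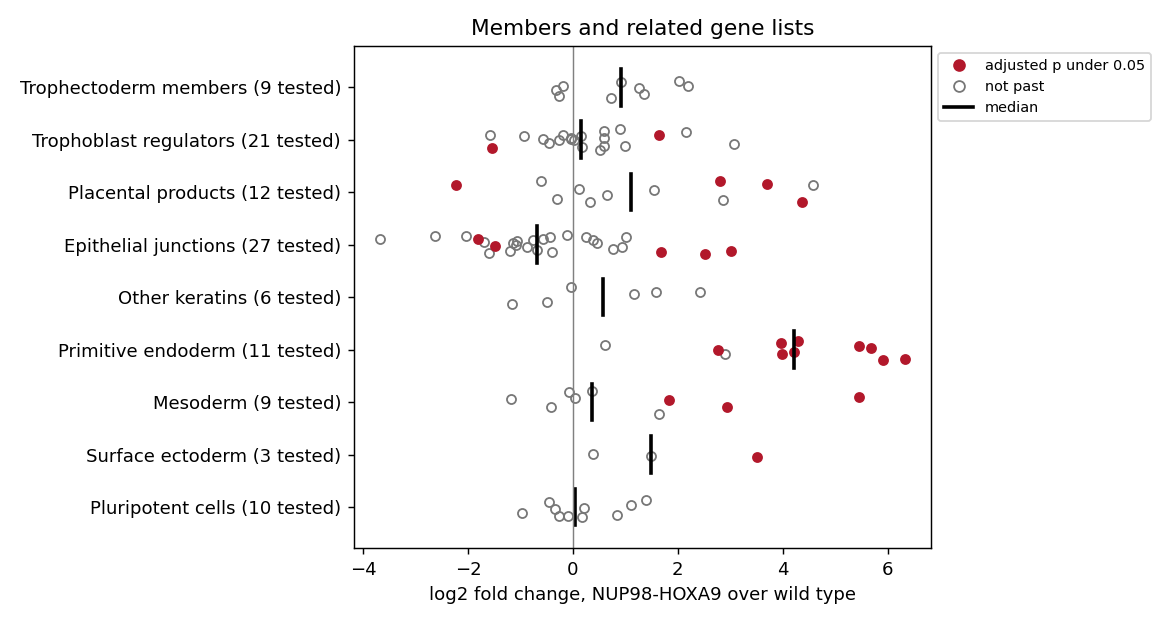
Log2 fold change, fusion over wild type, of each tested gene in the trophectoderm group and in 8 related lists, with filled points past an adjusted p of 0.05 and a bar at each median. No trophectoderm point is filled, and primitive endoderm has 9 filled points of 11, all above 0. Genes could enter the test on their fusion counts alone, and 5 of these 11 averaged 1 CPM or more in the wild-type libraries. The row of epithelial junctions also holds other genes of simple epithelium.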

How the data were processed

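The members and gene lists were chosen with earlier results of these data known. The authors deposited 1 gene table per library with expected counts, TPM, FPKM and mean transcript length (weighted by abundance), per the file headers; the submitters' processing notes list the tools STAR 2.7.10a, RSEM 1.3.3 and DESeq2 1.36.0 with the build GRCm38/mm10. Library preparation used a kit for stranded mRNA, per the labels' protocols. The sources used here do not give the annotation release, the strand setting or any filter. Deposited FPKM values were not used.

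Symbols came from GENCODE M21 for 55141 of 55401 identifiers (99.5%). The expected counts, rounded to whole numbers, went into edgeR 4.0.16 (R 4.3.3): TMM scaling, filterByExpr at a minimum count of 10, robust quasi-likelihood fit, 2 fusion against 2 wild-type libraries, Benjamini-Hochberg adjustment over 16511 genes, threshold 0.05. A gene could pass filterByExpr on the counts of 1 group alone. The common biological coefficient of variation was 25.6%. The SE is the absolute log2 fold change divided by the square root of F. The labels pair no libraries. Simulated counts with known fold changes were used to test the fit. Each control alone was used in a fit with 3 groups, which assumes that a lone library varies like the fusion libraries. Pairs of libraries were compared in genes at 1 CPM or more, on log2 CPM with a prior count of 2, with 95% exact binomial intervals for single genes. All 10 members were named; in each other list the genes past the threshold (at most 6, by adjusted p) and the 2 with the highest mean CPM. Hnf4a, Cubn and Foxa2 are beyond that limit of 6. Alternatives were other scalings, filters and fits, DESeq2 1.42.0, limma 3.58.1 on log2 of TPM plus 1 or plus 0.1, and each library left out. Tables were made with pandas 2.3.3, scipy 1.17.1 and python 3.11.15, and plots with matplotlib 3.10.9.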

Additional observations from a re-analysis of the deposited data

How the results depend on the processing

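The count of trophectoderm genes past the threshold was 0 in 11 of 15 alternatives. It was 1 (Gata2) with DESeq2's size factors, with the filter at 1 CPM and by DESeq2, and 2 (Gata2 and Gata3) with no count filter; it stayed at 0 without any 1 library. Over all genes, leaving out 1 library gave 152 to 367 genes higher and 11 to 185 lower. The count higher was 84 against the parental line, 64 against the empty vector, 1315 with no count filter, 931 by DESeq2, 246 by limma on log2 TPM plus 0.1 and 5 by limma with no filter. The count lower was 20, 18, 631, 432 and 27 under the first 5 of these settings in the same order, 51 by limma on log2 TPM plus 1, and 0 by limma with no filter. In the related lists, 23 genes rose and 4 fell; leaving out 1 library gave 13 to 24 and 0 to 8. Rises numbered 10 against the parental line, 9 against the empty vector, 42 with no count filter, 35 by DESeq2 and 1 by limma with no filter. Falls numbered 0, 0, 12 and 12 under the first 4 of these, 1 with library totals, 1 by limma with either pseudocount and 0 by limma with no filter.

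Directions turned mostly in genes whose controls lie apart. Krt19 was at 1.23 on the log2 scale against the empty vector, 0.20 by limma with plus 1 (with or without the filter) and 0.22 with plus 0.1, and at -0.90 to 1.21 with 1 library left out. Hand1 was at 2.47 against the empty vector, 0.23 by limma with plus 1 (with or without the filter) and 0.66 with plus 0.1, and at -1.24 to 2.46 with 1 library left out. Ascl2 was at 0.23 against the parental line and -0.66 to 0.21 with 1 library left out. Related genes that were not past the threshold turned too. Krt42 was at 0.26 and Perp at -0.069 against the empty vector, Esrrb at -0.00015 with no count filter and Pou5f1 at 0.024 by limma under all 3 settings. With 1 library left out, Krt42 spanned -1.09 to 0.25, Perp -0.59 to 1.03, Esrrb -0.10 to 0.14, Dppa5a -0.077 to 0.40 and Pou5f1 -0.19 to 0.012. The cause was not tested, other than that fewer libraries or more genes enter some fits. No paired analysis was possible because the labels pair no libraries. Depth limits Elf5 and the placental products at or near 0.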

Other observations

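Some regulators of epithelial identity in the list of simple epithelium and its junctions differed between the fusion libraries. Esrp1, an epithelial splicing factor named here after its values were seen, had 1.05 CPM in the first fusion library, 45.8 CPM in the second, 70.5 CPM with the empty vector and 71.6 CPM in the parental line (log2 fold change -1.60, adjusted p = 0.538, edgeR). Grhl2, a transcription factor of epithelial junction genes, chosen likewise, had 1.45 and 19.01 CPM in the fusion libraries, against 71.3 and 56.1 CPM in the same controls (log2 fold change -2.63, adjusted p = 0.166, edgeR). Both were lowest in the library in which Krt8, Krt18, Eomes and Gata3 were highest.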
